A study of Danio rerio with 28 samples.

Results

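The RNA of mpeg1+ cells that did or did not carry a ccl34b.1 reporter was compared in the brains of untreated adult zebrafish aged 4 months. The comparison used 5 libraries of ccl34b.1+mpeg1+ cells and 5 of ccl34b.1-mpeg1+ cells, 10 of the 28 libraries of the study, chosen by the gate, age and treatment in their labels (treatment is given there as not applicable). All fish, controls of the other experiment included, carried TgBAC(ccl34b.1:eGFP);Tg(mpeg1:DsRedx), with green fluorescence under a bacterial artificial chromosome of the ccl34b.1 locus and red fluorescence under the mpeg1 promoter, so a gate is a limit on reporter fluorescence and no fish without reporters was compared. Brains were dissociated with trypsin, and each of 5 fish gave 100 sorted cells per gate in 3 technical replicates, of which 1 was sequenced after its cDNA quality was checked. A library is therefore 1 draw of 100 cells from 1 fish. A second experiment used 9 fish aged 6 months with the same reporters, of which 2 were controls, 4 were injected with PBS (a salt buffer) and 3 with E. coli. Its 4 control and 8 PBS libraries serve here as other fish in which to look at the same gates. The populations are called ccl34b.1+ and ccl34b.1- cells below.

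Microglia are the macrophages that live in brain tissue, where they survey their surroundings through receptors for nucleotides and growth factors, engulf dying cells and digest them in lysosomes. Conventional dendritic cells are another branch of mononuclear phagocytes, which need the FLT3 receptor and present antigen to lymphocytes. In the mouse, their cross-presenting subset needs the transcription factors BATF3, IRF8 and ID2. In zebrafish mpeg1, which encodes a pore-forming protein of phagocytes, is widely used to mark macrophages, and ccl34b.1 encodes a chemokine of the CC family. The labels call the cells of both gates microglia.

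Library totals were 20400000 to 30370000 counts in ccl34b.1+ and 14240000 to 24020000 counts in ccl34b.1- cells, with 10541 to 11786 and 9526 to 11149 genes holding a count. Across the genes tested, log2 levels of libraries correlated at r = 0.484 to 0.585 within ccl34b.1+ cells, 0.385 to 0.465 within ccl34b.1- cells and 0.302 to 0.409 between gates. Among 900 genes with a mean of at least 100 CPM (read counts scaled to the library size) in both gates, the median coefficient of variation was 31.7% in ccl34b.1+ and 44.9% in ccl34b.1- libraries, and 661 of them varied more in ccl34b.1- libraries. Libraries 1 and 4 of the ccl34b.1- gate lay at opposite ends of the second principal component, which held 14.2% of the variance. ENSDARG00000080337, an ID with no name, took 4.70% to 6.82% of counts in ccl34b.1+ and 9.51% to 16.5% in ccl34b.1- libraries. In such bulk samples, fewer cells of a type and less RNA per cell cannot be told apart.

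Of 8658 genes tested with edgeR's quasi-likelihood test, 321 (3.71%) passed a Benjamini-Hochberg adjusted p of 0.05, with 182 (2.1%) higher and 139 (1.61%) lower in ccl34b.1+ cells. Unless another tool or setting is named, only these genes are said to be called, higher or lower, and adjusted p comes from this test. The effect of the replicate number as a block is given at the end, with the other processing alternatives, and not beside single genes. Values are CPM per library (libraries 1 to 5), fitted log2 fold changes of ccl34b.1+ over ccl34b.1- cells with their SE, or mean ± SD with n = 5 and 5. The libraries of the gates did not overlap for 447 genes (5.16%) that were higher and 282 (3.26%) that were lower. Counts of called or non-overlapping genes in the lists below are to be read beside these shares. The median fold change over all genes tested was -0.0076 on the log2 scale, with 49.8% of values positive and 50.2% negative. Where a gate held 1 to 3 counts in all its libraries, the ratio of CPM is given with a 95% counting interval in place of a fitted value, and where it held none, a bound from a floor of 3 counts over the gate. These cover counting error only, since the libraries carry no molecular identifiers.

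**Figure D1:**
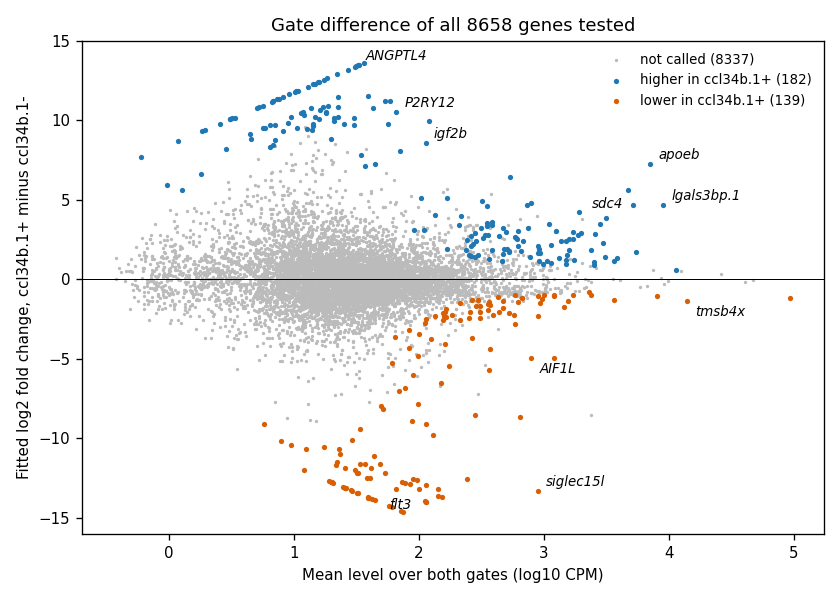
Fitted log2 fold change (ccl34b.1+ minus ccl34b.1-, vertical axis) against the mean level over both gates (log10 CPM, horizontal axis) for all 8658 genes tested, 1 point a gene, with 182 called higher in blue and 139 called lower in orange. The called lower genes include a band below -10 on the log2 scale made of genes with few or no counts in ccl34b.1+ libraries, such as flt3, for which the fitted value depends on the prior count of the fit.

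The sort genes came first. ccl34b.1 stood at 7662, 9649, 11450, 11180 and 10280 CPM in ccl34b.1+ and 232, 868, 439, 288 and 149.6 CPM in ccl34b.1- libraries, which restates the gating. MPEG1 (ENSDARG00000055290) stood at 771, 968, 971, 784 and 997 CPM in ccl34b.1+ libraries. In ccl34b.1- libraries it stood at 1680, 926, 1000, 906 and 1356 CPM (log2 fold change -0.39 ± 0.24, adjusted p = 0.717). The gates thus overlapped in MPEG1, and every library of both held it.

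Of the 25 microglia identity genes tested, 5 were higher in ccl34b.1+ cells and 0 lower, 22 had a positive fold change, and the list's median was 2.11 on the log2 scale against -0.0076 over all genes. The lists, this one included, were chosen with earlier results of these data known, so their counts and medians are descriptions. The summed level of its 38 matched IDs was 43750 to 53170 CPM in ccl34b.1+ and 2516 to 4596 CPM in ccl34b.1- libraries. Most of the former lay in lgals3bp.1 and apoc1, so the sum does not describe the list as a whole. P2RY12, the ADP receptor by which microglia sense injury in mammals, stood at 194, 132, 116, 61.4 and 152 CPM in ccl34b.1+ libraries. In ccl34b.1- libraries it stood at 0, 0.322, 0.0717, 0 and 0 CPM (adjusted p = 0.000767), so 3 of the 5 had no count of it. The apolipoprotein E gene apoeb, chosen after its values were seen, stood at 16310, 11710, 13980, 14690 and 13640 CPM in ccl34b.1+ and 3.43, 184, 2.87, 182 and 89.2 CPM in ccl34b.1- libraries (log2 fold change 7.25 ± 1.23, adjusted p = 0.00834). Libraries 2, 4 and 5 of the ccl34b.1- gate held more apoeb than libraries 1 and 3, and all lay far below every ccl34b.1+ library. The apoeb call ended with no filter on low counts (adjusted p = 0.0556) and with limma voom (adjusted p = 0.889). In the limma voom fit the median of all genes was 0.80 on the log2 scale. The call of the sort gene ccl34b.1 ended there too (adjusted p = 0.51), though its libraries did not overlap. Further limits of that fit are given at the end, and hold wherever a call is said to end with limma voom. The list had 9 members higher with DESeq2, and 1 lower in the fit of all 28 libraries, with no filter and with a filter at a mean of 10 CPM.

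The galectin-3 binding protein genes lgals3bp.1 and lgals3bp.3 were called in the same list. lgals3bp.1 stood at 13450, 21760, 21160, 16000 and 14800 CPM in ccl34b.1+ and 317, 1001, 664, 994 and 425 CPM in ccl34b.1- libraries (log2 fold change 4.68 ± 0.33, adjusted p = 4.66e-06). lgals3bp.3 stood at 535, 797, 745, 537 and 504 and 9.15, 31.3, 18.8, 27.5 and 14.8 CPM in the same order (log2 fold change 4.94 ± 0.43, adjusted p = 8.72e-06), and their paralog lgals3bp.2, chosen after its values were seen, at 203 ± 47.9 against 5.95 ± 4.00 CPM (5.09 ± 0.68, adjusted p = 0.00048). The lgals3bp.1 call ended with limma voom (adjusted p = 0.986). Reads of such near-identical paralogs may be split between them by the counting. The receptors for colony stimulating factor 1, on which microglia depend, did not pass, although their libraries did not overlap. csf1ra stood at 213, 372, 339, 247 and 245 CPM in ccl34b.1+ and 64.5, 31.0, 92.3, 0.0431 and 6.39 CPM in ccl34b.1- libraries (adjusted p = 0.218), and csf1rb at 247, 183, 308, 724 and 461 and 25.6, 119, 21.7, 146 and 134 CPM (adjusted p = 0.0689). csf1ra passed without ccl34b.1- library 4 (adjusted p = 0.0476), and csf1rb passed with DESeq2, with no filter and with a filter at a mean of 10 CPM (adjusted p = 0.0283, 0.0315 and 0.0493). Both receptors and mertka, a receptor for dying cells that stood at 81.1 against 15.1 CPM (adjusted p = 0.828), were chosen after their values were seen. With limma voom mertka passed (adjusted p = 0.0421). The libraries of both gates are named only by their gate, since P2RY12 was near absent from ccl34b.1- libraries and apoeb low in them.

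**Figure D2:**
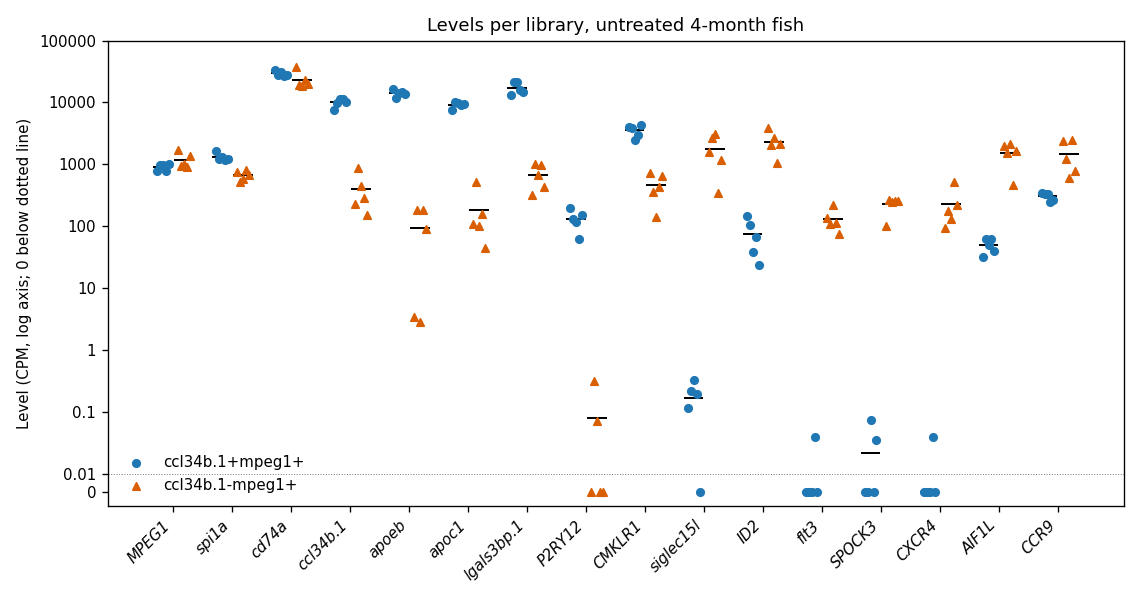
Level per library of 16 genes (CPM, log axis, with libraries at 0 below the dotted line) in ccl34b.1+mpeg1+ (blue circles) and ccl34b.1-mpeg1+ libraries (orange triangles), 5 libraries each, with bars at the means. CMKLR1 is ENSDARG00000090890 and CXCR4 is ENSDARG00000057633. The gates overlap for MPEG1 and cd74a, spi1a and the genes from ccl34b.1 to CMKLR1 are higher in every ccl34b.1+ library, and those from siglec15l to CCR9 are lower in every one.

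The macrophage core list, genes shared by most myeloid cells, had 3 of 17 tested members higher and 0 lower, with a median of 0.80. fcer1gl, a signalling chain of Fc and lectin receptors, stood at 2132, 1196, 1961, 1937 and 2098 CPM in ccl34b.1+ and 209, 580.3, 399, 639 and 309.9 CPM in ccl34b.1- libraries (log2 fold change 2.12 ± 0.31, adjusted p = 0.001). Its level in ccl34b.1+ library 2 lay below the other 4, and still above every ccl34b.1- library. spi1a, a PU.1 factor of myeloid development, differed 1.96-fold (1310 ± 192 against 668 ± 120.2 CPM, adjusted p = 0.0221), and itgb2, the integrin chain common to leukocytes, 2.25-fold (643 ± 176 against 286 ± 71.3 CPM, adjusted p = 0.037). The count higher was 1 without ccl34b.1+ library 1. Members were also lower in other fits, with 5 higher and 2 lower with DESeq2, 3 and 3 with limma voom, and 4 and 3 in the fit of all 28 libraries. All ccl34b.1- libraries held spi1a and itgb2, at 520 to 817 and 183 to 373 CPM. The spi1a call ended without ccl34b.1+ library 1 (adjusted p = 0.0643). The itgb2 call ended without ccl34b.1+ libraries 1, 3 or 4 or ccl34b.1- libraries 1, 3, 4 or 5 (adjusted p = 0.0619 to 0.113), with no filter on low counts (adjusted p = 0.0873), without both ccl34b.1- libraries 1 and 4 (adjusted p = 0.134) and with limma voom (adjusted p = 0.0527).

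The conventional dendritic cell list was likewise drawn up with results of these data known, so its count and median are a description. Of its 19 tested members, 7 were lower in ccl34b.1+ cells and 0 higher, 6 had a positive fold change, and its median was -4.95. In the fit of all 28 libraries 13 were lower, and with limma voom 1 was higher. The list's 28 matched IDs summed to 1570 to 3705 CPM in ccl34b.1+ and 8353 to 18060 CPM in ccl34b.1- libraries. ID2, an inhibitor of helix-loop-helix factors, stood at 144, 104, 38.8, 67.9 and 23.3 CPM in ccl34b.1+ and 3866, 2022, 2661, 1034 and 2121 CPM in ccl34b.1- libraries (log2 fold change -4.95 ± 0.52, adjusted p = 5.01e-05). flt3, the receptor of the dendritic cell growth factor, stood at 138, 108, 224, 115 and 75.3 CPM in ccl34b.1- libraries against 1 count in the 5 ccl34b.1+ libraries together (ratio 15770, interval 2830 to 623000, adjusted p = 4.55e-05). SPOCK3, a secreted proteoglycan, stood at 99.3, 266, 250.5, 259 and 261 CPM in ccl34b.1- libraries against 3 counts (ratio 9996, interval 3420 to 48470, adjusted p = 8.4e-06), with ccl34b.1- library 1 lowest by a wide gap. SPOCK3 and the next genes siglec15l, chl1a and epdl1 are on the list but are not defining genes of dendritic cells.

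siglec15l, a sialic acid-binding lectin, stood at 1610, 2710, 3153, 341 and 1155 CPM in ccl34b.1- and 0.115, 0.214, 0.329, 0.196 and 0 CPM in ccl34b.1+ libraries (adjusted p = 8.4e-06), and chl1a, a neural adhesion protein, at 395, 116, 515, 156 and 233 CPM against 3 counts (ratio 10540, interval 3605 to 51100, adjusted p = 6.74e-06). Library 4 held the least siglec15l of the ccl34b.1- libraries. The siglec15l call ended with limma voom (adjusted p = 0.0764). BATF3, the transcription factor of cross-presenting dendritic cells in the mouse, stood at 490.3, 88.5, 448, 0.0431 and 269 CPM in ccl34b.1- and 0, 1.39, 0.0365, 0.0785 and 0 CPM in ccl34b.1+ libraries (log2 fold change -9.77 ± 2.15, adjusted p = 0.0228). The gates overlapped in BATF3, with ccl34b.1- library 4 as low as the ccl34b.1+ libraries. epdl1, an ependymin-like secreted protein chosen after its values were seen, stood at 648, 656, 328, 1254 and 705 and 2.72, 0.535, 1.28, 36.5 and 27.6 CPM in the same order (log2 fold change -5.71 ± 1.10, adjusted p = 0.0105). The BATF3 call ended without ccl34b.1+ libraries 1, 3, 4 or 5 (adjusted p = 0.0566 to 0.066), with no filter on low counts (adjusted p = 0.114) and with limma voom (adjusted p = 0.138), and its log2 fold change was -12.81 without ccl34b.1+ library 2. The epdl1 call ended with no filter on low counts (adjusted p = 0.114), and its log2 fold change was -6.47 without ccl34b.1+ library 4.

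Other dendritic cell genes, chosen after their values were seen, did not separate the gates by the test. IRF8, needed by dendritic cells and by zebrafish macrophages, stood at 481 ± 169 against 456 ± 254 CPM (adjusted p = 0.998). The chemokine ccl19a.1 stood at 7680, 5558, 5957, 1364 and 3142 CPM in ccl34b.1- and 0.191, 0.267, 62.6, 0.118 and 0.0353 CPM in ccl34b.1+ libraries (adjusted p = 0.117), and HEPACAM2, an adhesion protein, at 673, 529, 1032, 307 and 407 and 0, 20.0, 0.146, 0 and 0 CPM (adjusted p = 0.132). Neither overlapped, but ccl34b.1+ library 3 alone held 62.6 CPM of ccl19a.1 and library 2 alone 20.0 CPM of HEPACAM2. Without that library each passed, ccl19a.1 at an adjusted p of 4.43e-07 and HEPACAM2 at 3.71e-05, as both did with DESeq2 and in the fit of all 28 libraries. HEPACAM2 passed with limma voom too (adjusted p = 0.00303). XCR1 (ENSDARG00000054847), a receptor of cross-presenting dendritic cells, stood at 303, 0, 34.7, 87.8 and 328 CPM in ccl34b.1- and 1.26, 0.0535, 0.0365, 25.8 and 76.2 CPM in ccl34b.1+ libraries (adjusted p = 0.779), with 0 in ccl34b.1- library 2. The lymph node homing receptor CCR7 and ccl19b had no count in any of the 10 libraries. ZNF366, a nuclear factor of mammalian dendritic cells outside the list and chosen after its values were seen, stood at 108, 23.3, 117, 66.0 and 96.1 CPM in ccl34b.1- libraries against 1 count (ratio 9505, interval 1705 to 375500, adjusted p = 0.000735).

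Markers of other cell types were measured beside these results. The 32 matched B cell markers had 5 lower and 2 higher of 12 tested, and summed to 3909 to 8836 CPM in ccl34b.1+ and 2206 to 8136 CPM in ccl34b.1- libraries. XBP1 made up 81.8% to 93.5% of the sum in ccl34b.1+ libraries, and 81.2%, 59.5%, 56.3%, 41.3% and 45.5% of it in ccl34b.1- libraries 1 to 5. The light chain igic1s1 stood at 3.76, 90.4, 204, 559.7 and 286 CPM in ccl34b.1- libraries against 1 count (ratio 32490, interval 5830 to 1283000, adjusted p = 8.46e-05), igl3c3 at 4.98, 79.7, 174, 558 and 162 CPM against 3 counts (ratio 9452, interval 3234 to 45840, adjusted p = 0.000256), and igl3v5 at 3.51, 50.6, 103, 452 and 134 CPM against 0 counts (at least 7286-fold lower, adjusted p = 0.00146). Library 4 was highest and library 1 lowest for all of them, and without library 4 the bound for igl3v5 was 3185-fold and the ratios of igic1s1 and igl3c3 were 19180 (interval 3441 to 757500) and 4559 (interval 1560 to 22110). The count lower was 10 without ccl34b.1- library 1 or in the fit of all 28 libraries, and 8 without each ccl34b.1+ library in turn or with a filter at a mean of 10 CPM. cd79a, the B cell receptor chain chosen after its values were seen, followed a like order at 0, 9.70, 133, 312 and 103 CPM (adjusted p = 0.137, and 0.0034 with DESeq2), and the B cell factor EBF1 (ENSDARG00000099849) stood at 57.5, 33.7, 32.1, 56.9 and 20.5 CPM in ccl34b.1- libraries against 0 counts (at least 1681-fold lower, adjusted p = 0.0158). cd22, a sialic acid-binding receptor of mammalian B cells, was higher in ccl34b.1+ cells (88.3 against 0.570 CPM, 7.25 ± 1.54, adjusted p = 0.0158). RAG1 had no count in any library. EBF1 did not follow the order of the light chains and cd79a. It stood at 57.5 CPM in ccl34b.1- library 1, where they were lowest, and at 56.9 CPM in library 4, where they were highest. The EBF1 call ended without both ccl34b.1- libraries 1 and 4 (adjusted p = 0.0766). The cd22 log2 fold change was 8.53 without ccl34b.1- library 4. The part of B cells in the genes lower in ccl34b.1+ cells was not tested.

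Of 26 T cell markers matched, 13 had no count in any library, lck, ZAP70 and cd247 among them, and the 2 called, CXCR4 and CCR9, are receptors of many leukocytes. The sum of the list, 1815 to 3948 CPM in ccl34b.1+ and 2351 to 7734 CPM in ccl34b.1- libraries, lay mostly in CCR9 and both copies of CXCR4. No NK and innate lymphoid marker passed the filter, and their sum was 0 to 8.21 and 0.327 to 94.0 CPM. Of 7 neutrophil markers tested, 0 were called (1 lower with DESeq2 and 1 higher with limma voom), with lyz at 0 in every library. The 36 neuron markers summed to 0.212 to 30.2 CPM in ccl34b.1+ and 57.0 to 363 CPM in ccl34b.1- libraries, with none tested and SYT1, ELAVL3 and GAD2 at 0 in all 10. In other fits 1 neuron marker was lower and 0 higher. These were the fit of all 28 libraries (11 tested), no filter (20 tested) and the filter at a mean of 10 CPM (2 tested). The 15 erythroid markers summed to at most 0.173 CPM in any library.

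The 24 radial glia markers summed to 1568 to 3490 CPM in ccl34b.1+ and 125 to 529 CPM in ccl34b.1- libraries, and 1 of 6 tested was higher. That gene was GLUL (ENSDARG00000099776), the glutamine synthetase, at 1214, 1753, 2978, 2080 and 2057 and 80.0, 204, 136, 76.6 and 413 CPM (log2 fold change 3.47 ± 0.46, adjusted p = 0.000438), while GFAP and AQP4 had no count in any library. Most of the list's sum in ccl34b.1+ libraries lay in GLUL. The GLUL call ended with limma voom (adjusted p = 0.0709). Of 9 endothelial and mural markers tested, 1 was lower, TAGLN (ENSDARG00000033466), an actin-binding protein of smooth muscle, at 0.898, 161, 16.9, 40.9 and 73.5 CPM in ccl34b.1- libraries (0.0459 against 58.6 CPM, adjusted p = 0.0272). The list summed to 828 to 1181 and 231 to 556 CPM, with kdrl at 0 in every library. Oligodendrocyte (4 tested) and mast cell (1 tested) markers had 0 calls. mbpa, a myelin protein gene, stood at 139, 37.1, 76.1, 228 and 341 CPM in ccl34b.1+ and 21.5, 547, 50.9, 0 and 115 CPM in ccl34b.1- libraries (adjusted p = 0.998), and ALOX5 (ENSDARG00000057273), of leukotriene synthesis, at 63.3 against 12.2 CPM (adjusted p = 0.752). The TAGLN call ended without ccl34b.1+ libraries 2, 3, 4 or 5 or ccl34b.1- libraries 2 or 5 (adjusted p = 0.0525 to 0.105), and its log2 fold change was -9.29 without ccl34b.1- library 2 and -13.26 without ccl34b.1+ library 1. The part of these cell types in the results was not tested.

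Of 82 lineage transcription factors tested, 7 were higher and 3 lower in ccl34b.1+ cells, with a median of 0.27. The median's sign changed with no filter, in the fit of all 28 libraries and with ccl34b.1- libraries 1 and 4 left out. It was as low as -0.14 in the fits that left out 1 library. The count higher was 4 without ccl34b.1+ libraries 1, 3 or 5 or with no filter, and the count lower was 6 without ccl34b.1- library 1 and 8 in the fit of all 28 libraries. CEBPB, a leucine zipper factor of macrophage activation, stood at 7406, 13260, 10020, 5277 and 6528 CPM in ccl34b.1+ and 1055, 2806, 3456, 3030 and 2345 CPM in ccl34b.1- libraries (log2 fold change 1.74 ± 0.31, adjusted p = 0.00404). nfil3-6, of the same superfamily, stood at 2142, 2050, 1198, 496 and 931 and 17.3, 217, 104, 264 and 132 CPM in that order (log2 fold change 3.21 ± 0.59, adjusted p = 0.00563). For both, the lowest ccl34b.1+ library lay above the highest ccl34b.1- library, by less than a doubling. XBP1, the factor of the unfolded protein response and of secretory cells, stood at 5498 ± 2001 against 2189 ± 683 CPM (1.33 ± 0.27, adjusted p = 0.0107), with its ccl34b.1- maximum in library 4. klf2a, a zinc finger factor chosen after its values were seen, stood at 676, 888, 864, 539.6 and 435 CPM in ccl34b.1+ and 2.70, 86.4, 43.2, 8.06 and 0.437 CPM in ccl34b.1- libraries (log2 fold change 4.59 ± 1.07, adjusted p = 0.0304). The factors lower in ccl34b.1+ cells were ID2, BATF3 and EBF1, described above. The XBP1 call ended with limma voom (adjusted p = 0.394). The CEBPB call ended with no filter on low counts (adjusted p = 0.0873) and with limma voom (adjusted p = 0.515). The nfil3-6 call ended with no filter on low counts (adjusted p = 0.0851), in the fit of all 28 libraries (adjusted p = 0.0533) and with limma voom (adjusted p = 0.232). The klf2a call ended without each ccl34b.1+ library in turn or ccl34b.1- libraries 3 or 4 (adjusted p = 0.0533 to 0.0742), with no filter on low counts (adjusted p = 0.114), without both ccl34b.1- libraries 1 and 4 (adjusted p = 0.111) and with limma voom (adjusted p = 0.0635), and its log2 fold change was 5.65 without ccl34b.1- library 2.

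Receptors for chemoattractants differed in both directions, with 2 of 19 tested higher and 6 lower (10 lower in the fit of all 28 libraries). IDs with the symbol CMKLR1, a receptor of chemerin, which attracts macrophages and dendritic cells, were split between the gates. Whether each of these IDs encodes a receptor that binds chemerin was not tested. CMKLR1 (ENSDARG00000090890) stood at 4030, 3849, 2440, 2967 and 4356 CPM in ccl34b.1+ and 718, 355, 139, 432 and 654 CPM in ccl34b.1- libraries (log2 fold change 2.94 ± 0.37, adjusted p = 0.000276). This call ended with limma voom (adjusted p = 0.0581). CMKLR1 (ENSDARG00000110362) stood at 267, 292, 235, 37.6 and 73.2 CPM in ccl34b.1- libraries against 3 counts in ccl34b.1+ libraries (ratio 7091, interval 2426 to 34390, adjusted p = 2.71e-05). A further ID of that symbol, ENSDARG00000109654, chosen after its values were seen, stood at 147, 180.5, 139, 21.9 and 45.5 CPM against 2 counts (ratio 6349, interval 1757 to 52430, adjusted p = 0.000441). The last pair ranked the 5 ccl34b.1- libraries alike, with libraries 4 and 5 low, and IDs of 1 symbol may share reads.

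CXCR4 and ACKR3 both bind the chemokine CXCL12, the former as its signalling receptor and the latter as a scavenger. CXCR4 (ENSDARG00000057633) stood at 93.8, 174, 132, 527 and 224 CPM in ccl34b.1- libraries against 1 count (ratio 32530, interval 5839 to 1285000, adjusted p = 8.4e-06), and ACKR3 (ENSDARG00000058179) at 274, 160.4, 25.5, 187 and 125 CPM against 2 counts (ratio 9744, interval 2697 to 80470, adjusted p = 0.000113). The other CXCR4 copy, ENSDARG00000041959, was read in every library of both gates, at a mean of 2280 and 2535 CPM. CCR9 (ENSDARG00000055186), a chemokine receptor of lymphocytes and plasmacytoid dendritic cells in mammals, stood at 339, 338, 337, 246 and 261 CPM in ccl34b.1+ and 2408, 1244, 595, 2441 and 792 CPM in ccl34b.1- libraries (log2 fold change -2.30 ± 0.38, adjusted p = 0.00244). It was present in all 10, within a narrow range in ccl34b.1+ libraries and over a 4-fold range in ccl34b.1- ones. ccr12a, a chemokine receptor, stood at 151, 194, 171, 166 and 136 and 29.1, 30.4, 20.1, 2.80 and 14.8 CPM (3.07 ± 0.69, adjusted p = 0.0221), and S1PR1, the sphingosine phosphate receptor of lymphocyte egress, at 3.02, 0.966, 3.37, 18.1 and 32.1 CPM in ccl34b.1- libraries against 2 counts (ratio 783, interval 216 to 6476, adjusted p = 0.0399). The ccr12a call ended without ccl34b.1+ libraries 1, 2, 3 or 4 (adjusted p = 0.0512 to 0.0575) and in the fit of all 28 libraries (adjusted p = 0.0569). The S1PR1 call ended without each ccl34b.1+ library in turn or ccl34b.1- libraries 1, 2, 3 or 4 (adjusted p = 0.0629 to 0.142), with no filter on low counts (adjusted p = 0.114) and without both ccl34b.1- libraries 1 and 4 (adjusted p = 0.103). Without ccl34b.1- library 4 the ratio of CXCR4 was 20670 (interval 3708 to 816300), and without ccl34b.1- library 5 that of S1PR1 was 464 (interval 128 to 3843). The list's median, -0.53, changed sign in some settings.

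Of 13 purinergic and sensing receptors tested, 2 were higher, P2RY12 and NT5E, and S1PR1 was lower. The list's median of 1.53 changed sign with the processing. It was -0.77 in the fit of all 28 libraries, with 3 higher and 5 lower, and -1.46 with no filter, with 2 higher and 2 lower. NT5E, the enzyme that turns AMP into adenosine, stood at 2.29, 15.8, 59.7, 42.0 and 108 CPM in ccl34b.1+ libraries against 3 counts in ccl34b.1- libraries (ratio 1450, interval 496 to 7034, adjusted p = 0.0221). The ccl34b.1+ libraries spanned a wide range of NT5E, from 2.29 to 108 CPM, and without library 5 the ratio was 934 (interval 319 to 4531). The NT5E call ended without ccl34b.1+ libraries 3 or 5 (adjusted p = 0.0568 to 0.0698). GPR37 (ENSDARG00000074563), a receptor of saposin-derived peptides outside the list and chosen after its values were seen, stood at 105, 109, 315, 38.6 and 168 CPM in ccl34b.1- libraries against 2 counts (ratio 8457, interval 2341 to 69840, adjusted p = 0.000113).

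Among 15 chemokine ligands tested, ccl34b.1 was higher and 2 were lower, with a median of -1.40. The count lower was 7 in the fit of all 28 libraries, and the count higher 0 with limma voom. ccl35.2 stood at 212, 134, 287, 140.3 and 222 CPM in ccl34b.1+ and 1248, 1089, 609, 865 and 959 CPM in ccl34b.1- libraries (log2 fold change -2.26 ± 0.31, adjusted p = 0.000518). Its neighbour by name ccl35.1 stood at 862, 575, 1267, 653 and 1032 and 2940, 1836, 2280, 2114 and 2107 CPM in that order (log2 fold change -1.36 ± 0.25, adjusted p = 0.00515). The gates did not overlap for either, and both genes were read in all 10 libraries.

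Of 34 cytokines and growth factors tested, 4 were higher and 2 lower. The count higher was 2 without ccl34b.1+ libraries 1, 4 or 5, and 7 with DESeq2 or in the fit of all 28 libraries, where 4 and 7 were lower. pdgfba, a platelet-derived growth factor chain, stood at 552, 354, 589.7, 689 and 290.4 CPM in ccl34b.1+ and 106, 63.8, 42.8, 39.5 and 78.2 CPM in ccl34b.1- libraries (log2 fold change 2.90 ± 0.41, adjusted p = 0.000675). IGF1, insulin-like growth factor 1, stood at 30.8, 14.4, 23.3, 51.9 and 65.7 CPM in ccl34b.1+ libraries and had 0 counts in ccl34b.1- libraries (at least 1158-fold higher, adjusted p = 0.022). igf2b, of the same family and chosen after its values were seen, stood at 181, 166, 226, 353 and 207 and 0.0817, 0.0460, 0.0717, 2.67 and 0.0546 CPM (log2 fold change 8.55 ± 1.33, adjusted p = 0.0017), so both insulin-like growth factors lay with the ccl34b.1+ gate. il12ba, a subunit of interleukin 12, by which dendritic cells and macrophages instruct lymphocytes in mammals, stood at 0.898, 122, 67.1, 59.4 and 187 CPM in ccl34b.1- libraries against 0 to 0.0535 CPM in ccl34b.1+ libraries (adjusted p = 0.00216). tnfb, a tumour necrosis factor, stood at 464, 272, 743, 479.5 and 478 CPM in ccl34b.1+ and 2237, 861, 1622, 1078 and 1079 CPM in ccl34b.1- libraries (log2 fold change -1.50 ± 0.32, adjusted p = 0.0163). The highest ccl34b.1+ library, 743 CPM in library 3, lay just under the lowest ccl34b.1- library at 861 CPM. The IGF1 call ended without ccl34b.1+ libraries 1, 4 or 5 (adjusted p = 0.0501 to 0.0556). The igf2b log2 fold change was 11.75 without ccl34b.1- library 4. The tnfb call ended without both ccl34b.1- libraries 1 and 4 (adjusted p = 0.0805).

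Of 49 cytokine receptors and adaptors tested, 1 was higher, MYD88, the adaptor of Toll-like and interleukin 1 receptors, at 953, 938, 860.5, 936 and 1413 and 122, 169.9, 265, 426 and 209.6 CPM (log2 fold change 2.10 ± 0.34, adjusted p = 0.00216). Lower were flt3, il12rb2l, a receptor chain of the interleukin 12 family, and a pair of feedback inhibitors of cytokine signalling, CISH and SOCS1. il12rb2l, chosen after its values were seen, stood at 77.1, 44.4, 44.5, 0.0393 and 6.89 CPM in ccl34b.1+ and 1112, 724, 613, 591 and 513 CPM in ccl34b.1- libraries (log2 fold change -4.36 ± 1.11, adjusted p = 0.0484). SOCS1 stood at 130.4, 43.0, 5.67, 61.8 and 77.7 CPM in ccl34b.1- libraries against 1 count (ratio 7700, interval 1381 to 304200, adjusted p = 0.00283) and CISH at 66.8, 28.3, 13.4, 5.91 and 92.0 CPM against 0 counts (at least 1617-fold lower, adjusted p = 0.0203). SOCS1 was lowest in ccl34b.1- library 3 and CISH in library 4, and the bound for CISH was 1038-fold without ccl34b.1- library 5. The count lower was 2 without both ccl34b.1- libraries 1 and 4, and 7 with DESeq2, with limma voom or in the fit of all 28 libraries. The il12rb2l call ended without ccl34b.1+ libraries 1, 2, 3 or 5 or each ccl34b.1- library in turn (adjusted p = 0.0589 to 0.133), with no filter on low counts (adjusted p = 0.114), without both ccl34b.1- libraries 1 and 4 (adjusted p = 0.126) and with a filter at a mean of 10 CPM (adjusted p = 0.0702). The CISH call ended without both ccl34b.1- libraries 1 and 4 (adjusted p = 0.0609).

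Among signalling genes outside the lists, hcst, the adaptor DAP10 of activating receptors, and the tyrosine kinase FES, both chosen after their values were seen, stood at 3.23 against 301 CPM (-6.54 ± 1.43, adjusted p = 0.0218) and 0.347 against 175 CPM (-8.94 ± 1.75, adjusted p = 0.00854). The hcst call ended without ccl34b.1+ library 2 (adjusted p = 0.0647), with no filter on low counts (adjusted p = 0.114) and without both ccl34b.1- libraries 1 and 4 (adjusted p = 0.0595), and its log2 fold change was -7.98 without ccl34b.1+ library 5. The FES log2 fold change was -13.39 without ccl34b.1+ library 5.

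Engulfment receptors and machinery (30 tested) had 3 members higher and 1 lower, with a median of 1.08. The 3 were lgals3bp.1, lgals3bp.3 and itgb2, and the lower member was rac2, a GTPase of leukocyte movement and of the phagocyte oxidase, at 296, 223, 190.3, 144 and 189 CPM in ccl34b.1+ and 644, 953, 844, 458 and 799 CPM in ccl34b.1- libraries (log2 fold change -1.83 ± 0.30, adjusted p = 0.00245). SCARF1, a scavenger receptor outside the list and chosen after its values were seen, stood at 60.8, 15.2, 110.3, 14.8 and 104 CPM in ccl34b.1+ and 0.0817, 0.0460, 0.215, 0 and 0 CPM in ccl34b.1- libraries (log2 fold change 9.74 ± 1.98, adjusted p = 0.0112). The SCARF1 call ended without ccl34b.1+ library 3 (adjusted p = 0.053), and its log2 fold change was 10.80 without ccl34b.1- library 3. The summed level of the engulfment list was 21520 to 30150 CPM in ccl34b.1+ and 4479 to 5484 CPM in ccl34b.1- libraries, with most of the former in lgals3bp.1. The count higher was 7 with DESeq2 and 5 in the fit of all 28 libraries. Of the higher members, lgals3bp.1 and lgals3bp.3 are counted in the microglia identity list as well. The itgb2 call ended in the fits given with the macrophage core list.

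Lysosomal hydrolases, the enzymes that digest what is engulfed, had 5 of 46 tested members higher and 0 lower, with a median of 0.94. The gates did not overlap for 10 higher members and 0 lower, beside 5.16% higher and 3.26% lower over all genes. PSAP, the saposin precursor for sphingolipid breakdown, stood at 4162, 5285, 4759, 4640 and 3484 CPM in ccl34b.1+ and 1489, 2000, 1849, 1783 and 1488 CPM in ccl34b.1- libraries (log2 fold change 1.38 ± 0.18, adjusted p = 0.000394). grna, a granulin, and CTSB, cathepsin B, differed 2.91-fold and 3.20-fold (2305 ± 387 against 791 ± 138 CPM and 1384 ± 224 against 432 ± 143 CPM; adjusted p = 0.000518 and adjusted p = 0.00192). CTSZ, cathepsin Z and chosen after its values were seen, stood at 858, 925, 1177, 792 and 662 and 23.3, 81.0, 62.0, 223 and 179 CPM (log2 fold change 2.96 ± 0.50, adjusted p = 0.00318). CTSH, an aminopeptidase cathepsin, stood at 444 ± 172 against 154 ± 51.4 CPM (adjusted p = 0.04). All 5 genes were present in every ccl34b.1- library, so the gates differed by degree. Of 30 lysosomal membrane and proton pump genes, 1 was higher, the tetraspanin CD63 (1465 ± 149 against 673 ± 224 CPM, 1.12 ± 0.25, adjusted p = 0.0194), with a median of 0.58. The share of this list called was 3.33%, beside 3.71% over all genes. The CTSH call ended without ccl34b.1+ libraries 1, 3 or 5 or each ccl34b.1- library in turn (adjusted p = 0.0525 to 0.109), with no filter on low counts (adjusted p = 0.0602), without both ccl34b.1- libraries 1 and 4 (adjusted p = 0.115), with DESeq2 size factors (adjusted p = 0.0519) and with limma voom (adjusted p = 0.0911). The CD63 call ended without ccl34b.1+ library 3 (adjusted p = 0.0516) and without both ccl34b.1- libraries 1 and 4 (adjusted p = 0.0914).

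Of 26 apolipoprotein and lipid droplet genes tested, 6 were higher and 1 lower, with a median of 1.22. The list summed to 27140 to 29620 CPM in ccl34b.1+ and 979 to 1773 CPM in ccl34b.1- libraries. Beside that sum, the mean levels of apoeb and apoc1 in ccl34b.1+ libraries were 14070 and 9202 CPM. apoc1, an apolipoprotein, stood at 7456, 10130, 9823, 9060 and 9538 CPM in ccl34b.1+ and 110.0, 518, 101, 158 and 43.8 CPM in ccl34b.1- libraries (log2 fold change 5.63 ± 0.60, adjusted p = 0.000119). The coats of lipid droplets followed, PLIN2 at 569, 1071, 753, 599 and 556 and 95.8, 103, 44.7, 71.1 and 12.9 CPM (log2 fold change 3.44 ± 0.49, adjusted p = 0.000793) and plin3 at 1102, 719, 705, 652 and 410.2 and 157, 27.3, 70.1, 18.5 and 27.6 CPM (log2 fold change 3.58 ± 0.58, adjusted p = 0.00216). ACSL4 (ENSDARG00000010752), which activates polyunsaturated fatty acids, and ANGPTL4, an inhibitor of lipoprotein lipase, were both chosen after their values were seen. ACSL4 stood at 412 ± 113 against 26.5 ± 23.1 CPM (3.96 ± 0.67, adjusted p = 0.00286), and ANGPTL4 at 63.9, 46.9, 89.5, 73.0 and 58.2 CPM in ccl34b.1+ libraries against 0 counts in ccl34b.1- libraries (at least 2013-fold higher, adjusted p = 0.00395). The lower member was the MYLIP gene ENSDARG00000055118, which marks the LDL receptor for degradation, at 204, 3.26, 225, 122 and 23.8 CPM in ccl34b.1- libraries against 0 counts (at least 4210-fold lower, adjusted p = 0.00226), with library 2 lowest. The apoc1 call ended with limma voom (adjusted p = 0.404), and its log2 fold change was 6.52 without ccl34b.1- library 2. The plin3 log2 fold change was 4.34 without ccl34b.1- library 1. The ACSL4 log2 fold change was 4.56 without ccl34b.1- library 2.

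Sterol synthesis had 1 of 13 members higher, HSD17B7, at 70.7, 13.6, 38.8, 27.2 and 10.4 CPM in ccl34b.1+ libraries against 0 counts (at least 982-fold higher, adjusted p = 0.0266). The HSD17B7 call ended without ccl34b.1+ libraries 1, 2, 3 or 4 (adjusted p = 0.0534 to 0.0651), with no filter on low counts (adjusted p = 0.0503) and without both ccl34b.1- libraries 1 and 4 (adjusted p = 0.0594). Outside the lists and chosen after their values were seen, CH25H, which makes 25-hydroxycholesterol, stood at 2084, 2056, 3716, 1982 and 2560 CPM in ccl34b.1+ and 146, 705, 1136, 699 and 822 CPM in ccl34b.1- libraries (1.82 ± 0.40, adjusted p = 0.0188), and LTA4H, which makes leukotriene B4, at 492, 718, 540.1, 471 and 905 and 80.7, 135, 55.2, 13.6 and 173 CPM (2.77 ± 0.54, adjusted p = 0.00794). The CH25H call ended without ccl34b.1- library 2 (adjusted p = 0.0522), with no filter on low counts (adjusted p = 0.078) and with limma voom (adjusted p = 0.0595).

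**Figure D3:**
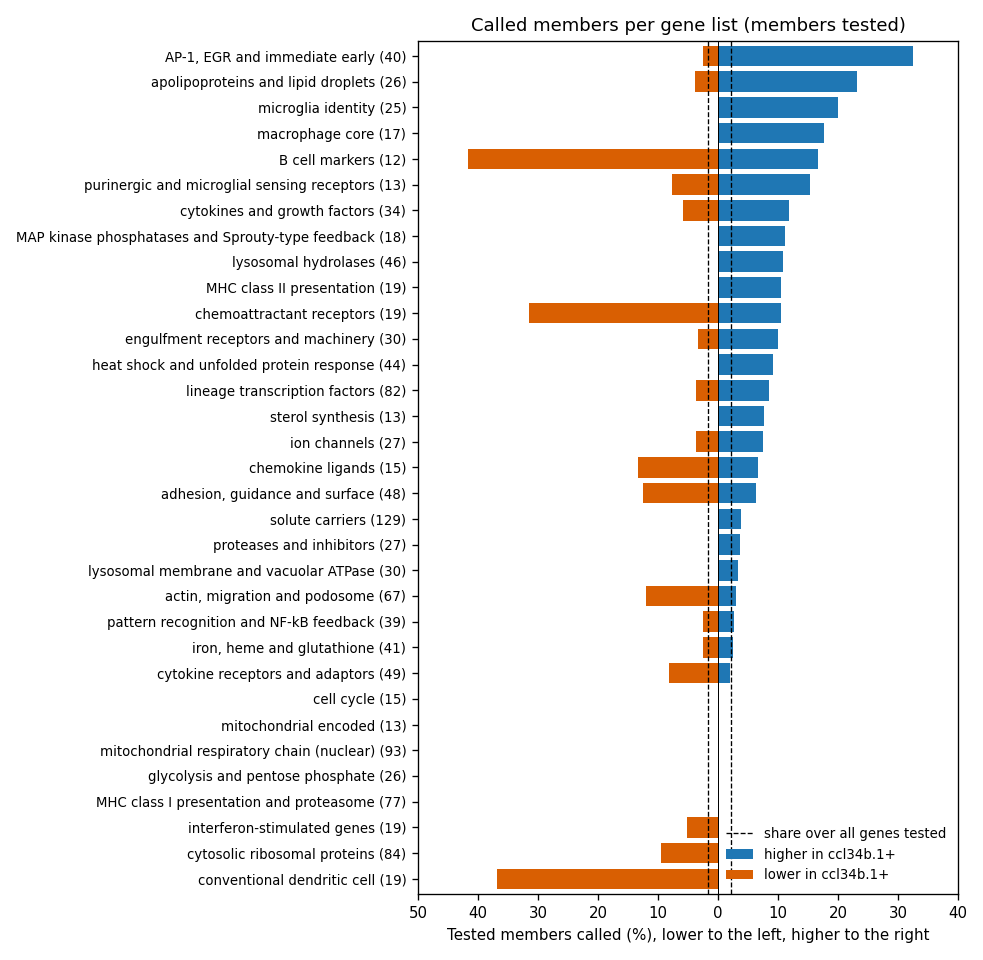
Share of tested members called higher (blue, to the right) or lower (orange, to the left) in ccl34b.1+ cells, in percent, for each list with at least 10 members tested (number tested in parentheses). Dashed lines mark the shares over all genes tested, 2.1% higher and 1.61% lower. Bars of the AP-1, apolipoprotein and microglia lists reach farthest right, and those of the B cell, dendritic cell and chemoattractant receptor lists farthest left. The lists were drawn up with results of these data known, so the bars are descriptions.

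Of the 8 higher genes with the smallest adjusted p and no overlap, sdc4 and ms4a17a.10 lay outside the lists. sdc4, a syndecan that carries heparan sulphate, stood at 6823, 6639, 7100, 5128 and 3598 CPM in ccl34b.1+ and 486, 158, 608, 621 and 148 CPM in ccl34b.1- libraries (log2 fold change 3.86 ± 0.42, adjusted p = 8.46e-05). ms4a17a.10, a four-span membrane protein of a family found on leukocytes, stood at 2518, 3515, 3402, 2341 and 3435 and 279.8, 243, 209.6, 755 and 445 CPM in that order (log2 fold change 2.98 ± 0.34, adjusted p = 0.000119). The sdc4 call ended with limma voom (adjusted p = 0.316). The lowest ccl34b.1+ library exceeded the highest ccl34b.1- library by 3-fold or more for each of them. The galectins lgals9l1 and lgals9l3, which bind galactosides, and icam3, an adhesion molecule of the immunoglobulin family, were chosen after their values were seen. lgals9l1 stood at 3412, 3233, 4563, 2996 and 4120 and 14.8, 191, 263, 244 and 244 CPM (log2 fold change 4.26 ± 0.56, adjusted p = 0.000518), with ccl34b.1- library 1 far below the other 4. lgals9l3 stood at 645 ± 118 against 56.0 ± 42.4 CPM (3.52 ± 0.60, adjusted p = 0.00336), and icam3 at 644 ± 68.8 against 62.8 ± 33.0 CPM (3.36 ± 0.41, adjusted p = 0.000213).

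Of the 8 lower genes chosen in the same way, 4 lay outside the lists. AIF1L, an actin-bundling relative of the microglial marker AIF1, stood at 31.9, 61.2, 49.0, 63.2 and 39.5 CPM in ccl34b.1+ and 1954, 1554, 2100, 469.9 and 1643 CPM in ccl34b.1- libraries (log2 fold change -4.98 ± 0.41, adjusted p = 8.4e-06). ACTN1, which crosslinks actin, stood at 410.3, 144, 526, 149 and 321 CPM in ccl34b.1- libraries against 2 counts (ratio 17490, interval 4842 to 144400, adjusted p = 8.72e-06), and CNN3 (ENSDARG00000099510), a calponin, at 132, 170.4, 247, 158 and 138 CPM against 2 counts (ratio 10530, interval 2914 to 86940, adjusted p = 1.73e-05). IQSEC1 (ENSDARG00000016551), an exchange factor for ARF GTPases, stood at 150.5, 159, 432, 111 and 160.0 CPM against 2 counts (ratio 11850, interval 3279 to 97840, adjusted p = 1.82e-05), highest in library 3. Of these, AIF1L alone was read in every ccl34b.1+ library.

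In the actin, migration and podosome list (67 tested), 8 genes were lower and 2 higher, with a median of -0.43. The count lower was 3 without ccl34b.1+ libraries 1 or 2 or ccl34b.1- libraries 1, 2 or 3, and 4 without ccl34b.1+ libraries 3, 4 or 5, with no filter on low counts or without both ccl34b.1- libraries 1 and 4. WIPF1, which stabilises the Wiskott-Aldrich protein, stood at 16.9, 14.6, 69.8, 70.9 and 14.6 CPM in ccl34b.1+ and 611, 779, 619, 122 and 339 CPM in ccl34b.1- libraries (log2 fold change -3.72 ± 0.65, adjusted p = 0.0036), and its partner WAS at 135 ± 55.8 against 439.5 ± 183 CPM (adjusted p = 0.0291). The actin monomer-binding thymosin tmsb4x stood at 8221, 8645, 8872, 5552 and 7867 and 32240, 22670, 26450, 7334 and 11770 CPM (log2 fold change -1.36 ± 0.32, adjusted p = 0.0257). The gates overlapped for tmsb4x, and library 4 was the lowest ccl34b.1- library for WIPF1, WAS and tmsb4x alike. WAS and tmsb4x were chosen after their values were seen. The WAS call ended without ccl34b.1+ libraries 1, 2, 3 or 4 or ccl34b.1- libraries 1, 2 or 3 (adjusted p = 0.0541 to 0.0937), with no filter on low counts (adjusted p = 0.0585) and without both ccl34b.1- libraries 1 and 4 (adjusted p = 0.0517). The tmsb4x call ended without each ccl34b.1+ library in turn or ccl34b.1- libraries 1, 2 or 3 (adjusted p = 0.053 to 0.0746), with no filter on low counts (adjusted p = 0.114) and with limma voom (adjusted p = 0.939). anxa5b, an annexin that binds phosphatidylserine, stood at 81.1, 52.5, 4.16, 72.7 and 46.3 CPM in ccl34b.1- libraries against 0 counts (at least 2219-fold lower, adjusted p = 0.0112). The anxa5b call ended without both ccl34b.1- libraries 1 and 4 (adjusted p = 0.0801). The members higher in ccl34b.1+ cells were itgae.1, an integrin alpha chain (849 ± 309 against 90.7 ± 76.9 CPM, 3.23 ± 0.52, adjusted p = 0.00216), and PLEK, pleckstrin (412 ± 111 against 75.8 ± 45.7 CPM, 2.44 ± 0.50, adjusted p = 0.0115). The itgae.1 log2 fold change was 3.90 without ccl34b.1- library 3.

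Of 48 adhesion, guidance and surface genes tested, 3 were higher and 6 lower, where DESeq2 called 10 lower and the fit of all 28 libraries 16. CADM4, a cell adhesion molecule of the immunoglobulin family, was among the lower members and stood at 39.8, 111, 78.0, 51.4 and 109.7 CPM in ccl34b.1+ and 436, 459.9, 393, 436 and 393 CPM in ccl34b.1- libraries (log2 fold change -2.44 ± 0.38, adjusted p = 0.00166), with little spread in the latter. tspan36, a tetraspanin, was higher, at 997, 762, 771, 799 and 753 and 150.4, 400.3, 185, 295 and 163 CPM (log2 fold change 1.77 ± 0.32, adjusted p = 0.00432). cd209, a C-type lectin outside the list and chosen after its values were seen, stood at 119, 1.75, 55.2, 8.54 and 156 CPM in ccl34b.1- libraries (0.0941 against 68.2 CPM, adjusted p = 0.0215). The cd209 call ended without ccl34b.1+ libraries 1 or 3 or ccl34b.1- libraries 1 or 5 (adjusted p = 0.0503 to 0.0678) and without both ccl34b.1- libraries 1 and 4 (adjusted p = 0.0553), and its log2 fold change was -8.81 without ccl34b.1- library 5 and -10.58 without ccl34b.1+ library 2. The list's median of 0.21 changed sign in some settings.

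Genes of MHC class II presentation, which shows peptides to helper T cells, were read in both gates. The 31 matched IDs summed to 70620 to 79450 CPM in ccl34b.1+ and 47360 to 75140 CPM in ccl34b.1- libraries, and 2 of 19 tested were higher and 0 lower, with a median of 0.51. cd74a, the invariant chain and chosen after its values were seen, stood at 34040, 27870, 30930, 26700 and 27720 CPM in ccl34b.1+ and 36880, 19490, 18390, 22670 and 20050 CPM in ccl34b.1- libraries (log2 fold change 0.33 ± 0.18, adjusted p = 0.638), so the gates overlapped and ccl34b.1- library 1 was the highest of all. Without that library the fold change was 0.56 on the log2 scale and passed (adjusted p = 0.0299), as it did without both libraries 1 and 4 (0.63, adjusted p = 0.0346). mhc2daa, a class II alpha chain, stood at 13690 ± 1245 against 9169 ± 1232 CPM, a 1.49-fold difference (adjusted p = 0.035), and the other called member was CTSH. The count was 0 without ccl34b.1- library 2, ccl34b.1+ libraries 3 or 5 or with DESeq2 size factors. The mhc2daa call ended without ccl34b.1+ libraries 2, 3, 4 or 5 or ccl34b.1- library 2 (adjusted p = 0.0524 to 0.0636), without both ccl34b.1- libraries 1 and 4 (adjusted p = 0.0585), in the fit of all 28 libraries (adjusted p = 0.403), with DESeq2 size factors (adjusted p = 0.104), with DESeq2 (adjusted p = 0.197) and with limma voom (adjusted p = 0.408). Of 77 genes of class I presentation and the proteasome, 0 were called (1 higher with DESeq2 and 3 with limma voom) and the median was 0.10. b2m, the class I light chain, stood at 1259 ± 331 against 1805 ± 404 CPM (adjusted p = 0.479).

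Of 6 complement genes tested, 0 were called, where DESeq2 called 1 higher and limma voom 2. c1qb, a chain of the first complement component, stood at 601, 587, 864, 1085 and 677 CPM in ccl34b.1+ and 38.8, 841, 713, 586 and 909.5 CPM in ccl34b.1- libraries (adjusted p = 0.998), and c1qa, chosen after its values were seen, at 251 ± 53.4 against 167 ± 108 CPM (adjusted p = 0.909). All ccl34b.1- libraries held c1qb, with library 1 lowest at 38.8 CPM. Pattern recognition and NF-kB feedback genes (39 tested) had 1 higher, ZFP36L1 (ENSDARG00000021443), which destabilises mRNAs, and 1 lower, NOD2, an intracellular sensor of peptidoglycan. NOD2 stood at 48.6, 42.6, 2.37, 156 and 57.0 CPM in ccl34b.1- libraries against 1 count (ratio 8770, interval 1573 to 346400, adjusted p = 0.00515), and without ccl34b.1- library 4 the ratio was 4941 (interval 886 to 195200). The NOD2 call ended without both ccl34b.1- libraries 1 and 4 (adjusted p = 0.0553). Of 19 interferon-stimulated genes, SOCS1 alone was called, and lower, with a median of 0.10 and 2 higher in the fit of all 28 libraries. The shares called were 5.13% of the pattern recognition list and 5.26% of the interferon list, beside 3.71% over all genes.

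Immediate early genes, transcription factors and regulators induced within minutes by stimuli, had 13 of 40 tested members higher and 1 lower, with a median of 0.95. JUNB (ENSDARG00000104773) stood at 6051, 5048, 3863, 4487 and 3325 CPM in ccl34b.1+ and 614, 755, 289, 1042 and 463 CPM in ccl34b.1- libraries (log2 fold change 2.85 ± 0.31, adjusted p = 8.46e-05), FOS at 4464, 3940, 2305, 3428 and 4743 and 1059, 866, 629, 1690 and 1029 CPM (log2 fold change 1.84 ± 0.27, adjusted p = 0.00118), and ZFP36L1 at 4080, 2791, 2408, 2355 and 2028 and 239, 736, 503, 443 and 464 CPM (log2 fold change 2.52 ± 0.30, adjusted p = 0.000159). The JUNB call ended with limma voom (adjusted p = 0.112). The FOS call ended with limma voom (adjusted p = 0.122). The ZFP36L1 call ended with limma voom (adjusted p = 0.056). All 10 libraries held each of them, and no ccl34b.1- library reached the lowest ccl34b.1+ library. The EGR factors egr1, EGR2 and EGR3, FOSL1 and ppp1r15a were chosen after their values were seen. EGR3 stood at 2991, 2601, 2144, 1887 and 1612 and 234, 53.0, 294, 604 and 211 CPM (log2 fold change 3.01 ± 0.47, adjusted p = 0.00182), and egr1 at 2519 ± 489 against 476 ± 378 CPM (2.40 ± 0.42, adjusted p = 0.00382). EGR2 stood at 445, 175, 92.4, 279 and 211 CPM in ccl34b.1+ libraries and was read in ccl34b.1- library 3 alone, at 1.22 CPM (adjusted p = 0.00244). FOSL1 stood at 1407 ± 347 against 54.6 ± 40.1 CPM (4.69 ± 0.82, adjusted p = 0.00563). The FOSL1 call ended with no filter on low counts (adjusted p = 0.0873), without both ccl34b.1- libraries 1 and 4 (adjusted p = 0.0519) and with limma voom (adjusted p = 0.0932). The egr1 log2 fold change was 3.04 without ccl34b.1- library 4. The lower member, csrnp1a, stood at 0.653, 101, 23.4, 192 and 79.5 CPM in ccl34b.1- libraries against 0 counts (at least 3967-fold lower, adjusted p = 0.00794), and the bound was 2526-fold without ccl34b.1- library 4.

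Of 18 genes for feedback on MAP kinases tested, 2 were higher and 0 lower. DUSP5, a phosphatase of ERK, stood at 1722, 1474, 1270, 1200 and 1445 and 416, 619, 196, 565 and 454 CPM (log2 fold change 1.66 ± 0.29, adjusted p = 0.0039), and SPRY4, a Sprouty inhibitor, at 171, 122, 88.5, 133 and 191 and 0.0817, 0, 0.430, 2.07 and 0 CPM (log2 fold change 8.06 ± 1.54, adjusted p = 0.00752). The median of that list was -0.16, and its sign changed in some settings. The count higher was 4 without ccl34b.1- library 1, with DESeq2 or with limma voom. The SPRY4 log2 fold change was 10.13 without ccl34b.1- library 4.

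Of 44 heat shock and unfolded protein response genes tested, 4 were higher and 0 lower, with a median of 0.79. The count was 8 in the fit of all 28 libraries and 1 with limma voom. HSPA5, the chaperone BiP of the endoplasmic reticulum, stood at 3414, 12670, 5530, 2085 and 2113 CPM in ccl34b.1+ and 680.0, 546, 238, 237 and 569 CPM in ccl34b.1- libraries (log2 fold change 3.51 ± 0.53, adjusted p = 0.00189), with ccl34b.1+ library 2 highest. DDIT3, the factor CHOP, stood at 4670, 5246, 2085, 2972 and 1602 and 224, 582, 369.9, 786 and 397 CPM (log2 fold change 2.81 ± 0.39, adjusted p = 0.000589). XBP1, given above, and TRIB3, a pseudokinase induced by CHOP and chosen after its values were seen (1028 ± 233 against 167 ± 147 CPM, adjusted p = 0.0304), were the others. ppp1r15a, which ends the translational block of this response, stood at 1017 ± 237 against 159 ± 116 CPM (2.67 ± 0.44, adjusted p = 0.00232). The DDIT3 call ended with limma voom (adjusted p = 0.352). The HSPA5 call ended with limma voom (adjusted p = 0.616), and its log2 fold change was 2.92 without ccl34b.1+ library 2. The TRIB3 call ended without ccl34b.1+ libraries 1, 2 or 5 or ccl34b.1- libraries 3 or 4 (adjusted p = 0.0556 to 0.0804) and with no filter on low counts (adjusted p = 0.114). ATF3, a stress-induced factor chosen after its values were seen, stood at 1483, 1064, 1543, 1250 and 1910 and 224, 219, 1032, 193 and 307 CPM (log2 fold change 1.88 ± 0.44, adjusted p = 0.0257), with ccl34b.1- library 3 far above the other 4. The ATF3 call ended without ccl34b.1+ libraries 3 or 5 or ccl34b.1- libraries 1, 2, 4 or 5 (adjusted p = 0.053 to 0.0734) and without both ccl34b.1- libraries 1 and 4 (adjusted p = 0.161), and its log2 fold change was 2.66 without ccl34b.1- library 3.

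**Figure D4:**
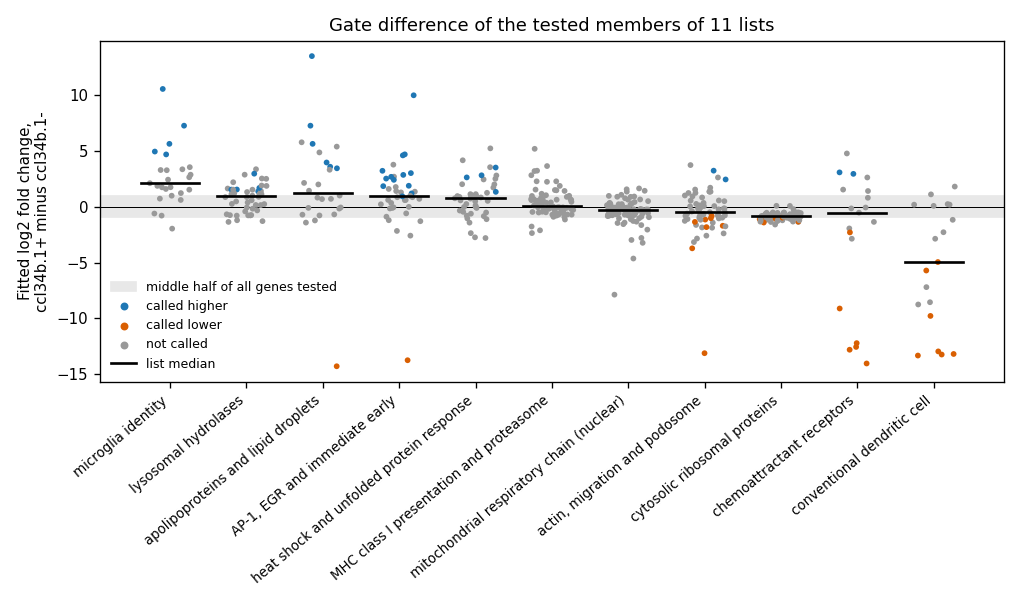
Fitted log2 fold change (ccl34b.1+ minus ccl34b.1-) of every tested member of 11 lists, 1 point a gene, blue where called higher, orange where called lower and grey where not called. Black bars are list medians, from 2.11 for the microglia identity list to -4.95 for the conventional dendritic cell list. The grey band spans the lower to the upper quartile of all genes tested, and ribosomal protein genes sit close together just under 0. Lists were drawn up with results of these data known, and the dendritic cell list holds genes that do not define dendritic cells.

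Of 84 cytosolic ribosomal proteins tested, 8 were lower and 0 higher, 82 had a negative fold change, and the median was -0.87. The gates did not overlap for 26 of them, all lower in ccl34b.1+ cells, beside 3.26% of all genes lower without overlap. Ribosomal protein genes took 3.18% to 3.68% of counts in ccl34b.1+ and 4.86% to 8.28% in ccl34b.1- libraries. RPLP1, of the ribosomal stalk, stood at 759.7, 856, 830.4, 787 and 765 CPM in ccl34b.1+ and 1190, 1735, 1625, 2002 and 1541 CPM in ccl34b.1- libraries (log2 fold change -1.02 ± 0.20, adjusted p = 0.0105). RPL23 and rps27.1 differed 2.11-fold and 1.99-fold (578 ± 72.7 against 1219 ± 399 CPM and 674 ± 68.4 against 1343 ± 411 CPM, adjusted p = 0.0272 and adjusted p = 0.0296). RPLP1 held its call whichever library was left out, and the count of called members ranged from 1 to 17 in those fits. It was 36 with DESeq2, 15 with DESeq2 size factors, 25 with limma voom, 4 with no filter and 2 with ccl34b.1- libraries 1 and 4 left out. The median stayed between -0.97 and -0.72 in all of these fits. The RPL23 call ended without each ccl34b.1+ library in turn or ccl34b.1- libraries 1, 2 or 4 (adjusted p = 0.0532 to 0.0949), with no filter on low counts (adjusted p = 0.0514) and without both ccl34b.1- libraries 1 and 4 (adjusted p = 0.108). The rps27.1 call ended without each ccl34b.1+ library in turn or ccl34b.1- libraries 2, 3 or 4 (adjusted p = 0.0609 to 0.0854), with no filter on low counts (adjusted p = 0.0656) and without both ccl34b.1- libraries 1 and 4 (adjusted p = 0.111).

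Energy metabolism gave 0 calls, where DESeq2 called 1 member lower in each of the next 3 lists. The 93 nuclear genes of the respiratory chain tested had a median of -0.28, the 13 mitochondrial genes -0.42 and the 26 glycolytic genes 0.41. MT-CO1 stood at 9573 ± 2091 against 10150 ± 2921 CPM (adjusted p = 0.998), ATP5F1B of the ATP synthase at 396 ± 113 against 361 ± 122 CPM (adjusted p = 0.998) and GAPDHS of glycolysis at 1244 ± 307 against 751 ± 264 CPM (adjusted p = 0.258). IDs with the symbol of a mitochondrially encoded gene took 2.29% to 3.09% of counts in ccl34b.1+ and 2.89% to 4.09% in ccl34b.1- libraries. These shares leave out any mitochondrial transcript whose ID has no such name. Of 15 cell cycle genes, 0 were called, and HMGN2, the most abundant of them, stood at 433 ± 121 against 805 ± 486 CPM (adjusted p = 0.4). CDK6, a cyclin-dependent kinase outside the list and chosen after its values were seen, stood at 136, 41.4, 25.5, 24.4 and 30.6 CPM in ccl34b.1- libraries against 1 count (ratio 5698, interval 1022 to 225100, adjusted p = 0.00482).

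Of 129 solute carriers tested, 5 were higher and 0 lower, with a median of 0.35, a share of 3.88% called beside 3.71% over all genes. The gates did not overlap for 15 higher members and 0 lower, beside 5.16% higher and 3.26% lower over all genes. The count higher was 3 without ccl34b.1+ libraries 2 or 3 or with no filter on low counts, 9 in the fit of all 28 libraries, with 6 lower, and 10 with DESeq2, with 3 lower, or limma voom. slc22a21, of the organic cation and carnitine family, stood at 1051, 961, 1176, 888 and 1136 CPM in ccl34b.1+ and 74.2, 220.1, 313, 196 and 81.8 CPM in ccl34b.1- libraries (log2 fold change 2.56 ± 0.39, adjusted p = 0.00135). SLC20A1 (ENSDARG00000010641), a phosphate transporter, stood at 1472 ± 504 against 339 ± 154 CPM (2.12 ± 0.35, adjusted p = 0.00268), and slco2b1, an organic anion transporter chosen after its values were seen, at 1307, 1462, 1628, 1717 and 1480 and 47.6, 0.460, 12.1, 112 and 103 CPM (log2 fold change 4.79 ± 1.00, adjusted p = 0.0203). slc25a22a, a mitochondrial glutamate carrier, stood at 34.2, 39.4, 82.8, 54.7 and 9.79 CPM in ccl34b.1+ libraries against 0 counts (at least 1318-fold higher, adjusted p = 0.0163). The SLC20A1 call ended with limma voom (adjusted p = 0.0631). The slco2b1 call ended without ccl34b.1+ library 2 (adjusted p = 0.0503), with no filter on low counts (adjusted p = 0.114) and without both ccl34b.1- libraries 1 and 4 (adjusted p = 0.0595). The slc25a22a call ended without ccl34b.1+ library 3 (adjusted p = 0.0542). ATP1B1 (ENSDARG00000013144), a subunit of the sodium pump chosen after its values were seen, stood at 1016 ± 246 against 292 ± 75.5 CPM (1.80 ± 0.28, adjusted p = 0.00184).

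Of 27 ion channel genes tested, 2 were higher and 1 lower. The chloride channel family members clic5b and CLIC2 stood at 72.5, 103, 109.9, 99.2 and 11.6 CPM in ccl34b.1+ libraries against 2 counts in ccl34b.1- libraries (ratio 3436, interval 951 to 28380, adjusted p = 0.00216) and at 802 ± 160.0 against 249 ± 96.1 CPM (1.69 ± 0.31, adjusted p = 0.00608). KCNK18, a potassium channel, stood at 10.2, 47.5, 129, 9.49 and 97.0 CPM in ccl34b.1- libraries against 0 counts (at least 2328-fold lower, adjusted p = 0.00947).

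Of 41 iron, heme and glutathione genes tested, HMOX1, which breaks down heme, was higher, at 272, 1708, 256, 317 and 392 and 102, 43.9, 109, 103 and 78.9 CPM (log2 fold change 2.76 ± 0.56, adjusted p = 0.0107), and gpx1a, a glutathione peroxidase, was lower (572 ± 116 against 1373 ± 725 CPM, adjusted p = 0.0499). The share of this list called was 4.88%, beside 3.71% over all genes. Library 2 held more HMOX1 than the other 4 ccl34b.1+ libraries, which all lay above every ccl34b.1- library. The HMOX1 call ended without both ccl34b.1- libraries 1 and 4 (adjusted p = 0.0722), in the fit of all 28 libraries (adjusted p = 0.0972) and with limma voom (adjusted p = 0.301), and its log2 fold change was 1.90 without ccl34b.1+ library 2. The gpx1a call ended without each ccl34b.1+ library in turn or ccl34b.1- libraries 1, 2 or 5 (adjusted p = 0.0651 to 0.127), without both ccl34b.1- libraries 1 and 4 (adjusted p = 0.0805) and with limma voom (adjusted p = 0.0623). Of 6 phagocyte oxidase genes, rac2 alone was called. TXNIP (ENSDARG00000036107), an inhibitor of thioredoxin, and the survival genes mcl1a and bcl2l10 of the BCL2 family were chosen after their values were seen. TXNIP stood at 1114 ± 673 against 134 ± 117 CPM (3.06 ± 0.65, adjusted p = 0.0157), mcl1a at 5003 ± 903 against 2243 ± 486 CPM (1.16 ± 0.20, adjusted p = 0.00355), and bcl2l10 at 179.5, 146, 115, 176 and 123 CPM in ccl34b.1+ and 1507, 625, 658, 1039 and 1284 CPM in ccl34b.1- libraries (log2 fold change -2.79 ± 0.32, adjusted p = 0.000116). The BCL2 family members thus differed in opposite directions, with no overlap between gates for either. The TXNIP call ended without ccl34b.1- library 4 (adjusted p = 0.0533), with no filter on low counts (adjusted p = 0.114), without both ccl34b.1- libraries 1 and 4 (adjusted p = 0.0585) and with limma voom (adjusted p = 0.189), and its log2 fold change was 3.73 without ccl34b.1- library 3. The mcl1a call ended with limma voom (adjusted p = 0.0512). srgn, the proteoglycan of leukocyte granules, stood at 160.1 against 239 CPM (adjusted p = 0.754).

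The gate difference was also read in the control and PBS-injected fish aged 6 months, which share no library with the untreated fish but differ from them in age, in experiment and in depth (2242000 to 8998000 counts). In 1 fit of all 28 libraries, 50 of 14151 genes (0.353%) were called between the gates of control fish, with 2 libraries a gate, and 196 (1.39%) in PBS fish, with 4. Of the 179 genes called higher in untreated fish that were tested there, 168 had the same sign in control fish and 30 were called, and 163 and 57 in PBS fish. Of the 139 called lower, 135 had the same sign in each, and 17 were called in control and 65 in PBS fish. No gene was called in the opposite direction in either.

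CPM in that fit are scaled over 28 libraries and so differ slightly from those above, and values of single genes are log2 differences for untreated, control and PBS fish. sdc4 differed by 3.83, 4.80 and 3.66, ID2 by -4.99, -5.63 and -5.18, and AIF1L by -4.99, -4.66 and -4.76, and all were called in all 3 sets of fish. apoeb differed by 7.20, 7.47 and 7.31 and CEBPB by 1.71, 2.40 and 2.76. For igf2b the differences were 8.49, 4.72 and 0.94 (interaction with PBS fish 7.55 ± 1.88, adjusted p = 0.136), and for RPLP1 -1.05, -0.55 and -0.31, neither called in the 6-month fish. RPLP1 stood at 648.5 to 744 and 1074 to 1843 CPM in untreated, 270.5 to 278 and 355 to 446 CPM in control, and 318 to 467 and 179 to 636 CPM in PBS fish, for ccl34b.1+ and ccl34b.1- cells. The ribosomal genes RPL31 and rps20, chosen after their values were seen, were also called lower in untreated fish (adjusted p = 0.0375 and 0.0426). Both calls ended in 8 of the 10 fits that left out 1 library. RPL31 differed by -1.67 in control and -1.74 in PBS fish, called in the latter (adjusted p = 0.022). rps20 differed by -0.21 and -0.073 there, not called in either.

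A direct test of the difference between fish called 0 of 14151 genes (0.0%) for untreated against control fish in edgeR, where 724 had an unadjusted p under 0.05 and DESeq2 called 682. For untreated against PBS fish it called 2 (0.0141%), SYNGR3 (ENSDARG00000025034), a synaptic vesicle protein in neurons, and siglec15l. SYNGR3 had 0 counts in untreated ccl34b.1+ libraries and 0.698 to 2.17 CPM in those of PBS fish, while ccl34b.1- libraries held 45.6 to 293 and 58.7 to 334 CPM (difference of the gate differences -6.64 ± 1.07, adjusted p = 0.00701). With 0 counts in a group, the size of that difference depends on the prior count of the fit. siglec15l stood at 0 to 0.291 CPM in untreated and 6.37 to 15.2 CPM in PBS ccl34b.1+ libraries, with ccl34b.1- libraries at 314 to 2730 and 2777 to 4822 CPM (-5.02 ± 0.82, adjusted p = 0.0163). For both genes the ccl34b.1+ libraries of the 6-month fish held low levels where those of untreated fish held almost none, and other genes of the ccl34b.1- gate stood likewise: ACTN1 at 0 to 0.0930 CPM in untreated, 3.43 to 5.96 in control and 1.22 to 2.31 in PBS fish, and chl1a at 0 to 0.0465, 3.05 to 3.57 and 0.660 to 1.92 CPM. The siglec15l call ended without untreated ccl34b.1+ library 1, PBS ccl34b.1- library 1, 2 or 3 or PBS ccl34b.1+ library 1 or 2 (adjusted p = 0.0613 to 0.0853), and with limma voom (adjusted p = 0.958). The SYNGR3 call held in each of these fits.

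**Figure D5:**
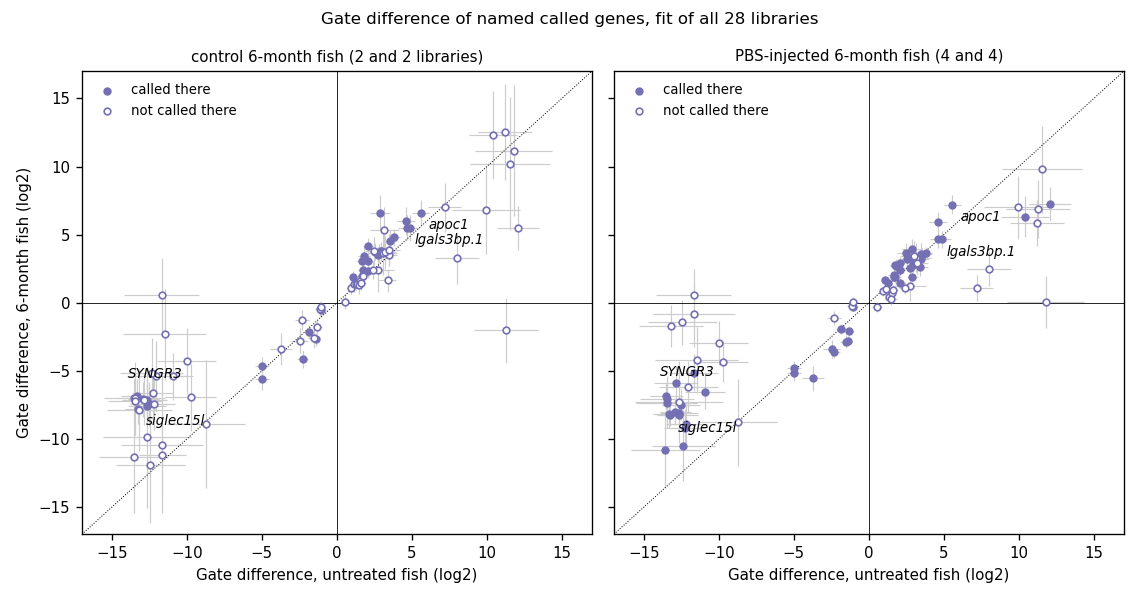
Gate difference (log2, ccl34b.1+ minus ccl34b.1-) of 85 genes named and called in untreated fish and of SYNGR3, in untreated fish (horizontal) against control (left) and PBS-injected fish aged 6 months (right), from 1 fit of all 28 libraries, with SE bars and the line of equality. Filled points are called in the 6-month fish. Most points lie in the quadrants of equal sign, and those below -12 in untreated fish mostly lie nearer 0 in the others, where the fitted value of genes with few or no counts in ccl34b.1+ libraries depends on the prior count and on depth.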

How the data were processed

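RNA of 100 sorted cells per library was made into cDNA by Smart-seq2 with 24 PCR and 12 index cycles, per the labels' protocols. The deposited counts per gene were made by the authors with STAR and featureCounts on GRCz11 (danRer11), and DESeq2 is named beside them, per the submitters' processing notes; versions, strand and treatment of reads matching several genes are not given in the sources used here. Near-identical or overlapping genes are therefore uncertain.

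Groups came from the labels. Counts of the 10 untreated libraries were fitted with edgeR 4.0.16 (R 4.3.3; TMM, filterByExpr, robust quasi-likelihood, gate as the only term) and adjusted by Benjamini-Hochberg over all genes tested. CPM use the TMM library sizes of that fit. The 6-month comparisons used 1 fit of all 28 libraries. Fits were also run on simulated data with 200 genes changed, but the outcome is not given here and no result rests on it. Alternatives were DESeq2 1.42.0, its size factors, limma 3.58.1 voom with sample quality weights, other filters, a fold threshold, a replicate block and each library left out. Names were found for 29201 of 32520 IDs (89.8%), and a symbol shared by several IDs is printed with its ID; lists matched 1334 of 1460 entries (91.4%).

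Genes were named by a rule: the sort genes; in each direction the 8 properly named genes with the smallest adjusted p, a mean of at least 20 CPM and no overlap between gates; in each list up to 3 called genes of each direction, or, with none called, the tested member with the highest level; and up to 5 genes per interaction. Some genes under this rule are not reported here. Genes beyond it were chosen with their values known, and those given with a test are marked so. The members, lists and rule were chosen with earlier results of these data known. P-values measure the spread between libraries, in which fish, the cells drawn and amplification are mixed. The fit has no term for fish, though each fish gave both gates.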

Additional observations from a re-analysis of the deposited data

Results flagged for a closer look

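The gap between libraries was examined in 249 sets of 5 libraries, each a gene in a gate with a mean of at least 1 CPM. These genes were named by the rule or chosen after their values were seen. Of the sets, 19 held a library whose gap to its nearest neighbour exceeded 0.71 of the set's range, the 95% critical value of Dixon's test. That test takes values as normal and the genes were partly chosen with values known, so the count is not set against chance. Of the ccl34b.1- libraries, library 1 stood apart for SPOCK3 (99.3 CPM against 250.5 to 266 CPM in the other 4), b2m (1088 against 1922 to 2065 CPM), cd74a (36880 against 18390 to 22670 CPM), CDK6 (136 against 24.4 to 41.4 CPM) and lgals9l1 (14.8 against 191 to 263 CPM). Library 2 stood apart for apoc1 (518 against 43.8 to 158 CPM), ALOX5 (49.7 against 0 to 7.03 CPM) and mbpa (547 against 0 to 115 CPM). For library 3 the genes were IQSEC1 (432 against 111 to 160.0 CPM), CTSH (64.7 against 159 to 189 CPM) and ATF3 (1032 against 193 to 307 CPM), and for library 4 XBP1 (3360 against 1628 to 2083 CPM) and igl3v5 (452 against 3.51 to 134 CPM).

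In the ccl34b.1+ gate, library 1 stood apart for tspan36 (997 against 753 to 799 CPM). Library 2 did so for fcer1gl (1196 against 1937 to 2132 CPM), HMOX1 (1708 against 256 to 392 CPM) and HEPACAM2 (20.0 against 0 to 0.146 CPM), library 3 for ccl19a.1 (62.6 against 0.0353 to 0.267 CPM) and library 5 for MYD88 (1413 against 860.5 to 953 CPM). Without the library that stood apart, the CTSH call ended (adjusted p = 0.0666), and ccl19a.1, HEPACAM2 and cd74a, not called over all libraries, passed (adjusted p = 4.43e-07, 3.71e-05 and 0.0299).

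The gate difference itself differed between untreated and PBS-injected fish by the tested interaction for SYNGR3 (-6.64 on the log2 scale, adjusted p = 0.00701) and siglec15l (-5.02, adjusted p = 0.0163). Against control fish the same differences were -6.49 and -5.50, each with an adjusted p of 0.111 in edgeR. Age, experiment, injection and depth all differ between these sets of fish and cannot be told apart.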

How the results depend on the processing

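Of 95 genes named by the rule, 85 were called, 68 of them in all 10 fits that left out 1 library, and 0 reversed. The 321 calls of the gate difference (182 higher, 139 lower) became 584 with DESeq2 (297 and 287), 782 in the fit of all 28 libraries (363 and 419), 208 when tested against a log2 difference of 1 (122 and 86), 602 with limma voom (376 and 226) and 256 with no filter (115 and 141). They were 331 with DESeq2 size factors, 338 with a filter at a mean of 10 CPM and 243 without ccl34b.1- libraries 1 and 4, a choice made after seeing the data. Leaving out 1 library gave 231 to 315 calls, with 113 to 170 higher and 100 to 146 lower, and the fewest higher without ccl34b.1+ library 3 (113) or 1 (115). The median of all genes moved to 0.80 with limma voom, so folds there are relative to that shift. It moved from -0.0076 to 0.1426, -0.1096 and -0.1219 without libraries 1 and 4, with the filter at 10 CPM and with no filter. In a voom fit without sample quality weights, the variance trend fell below 0 for 4 genes. With limma voom the call of ccl34b.1 ended (adjusted p = 0.51), though its libraries did not overlap. cd74a, whose libraries overlapped, passed there (adjusted p = 7.23e-07). The reason was not tested.

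The replicate number as a block gave 187 calls (97 and 90), with the median of all genes at 0.67. Each fish gave both gates, but the labels do not say that a replicate number marks 1 fish. Deviations of same-numbered libraries from their gate means correlated at r = 0.0170 to 0.0385. Each of the 10 libraries correlated best with its own number, a hint from the data that the numbers may mark fish. Of the 85 called genes, limma voom ended 22 calls, the block 24, the test against a log2 difference of 1 ended 23 and no filter 9. The block ended the calls of spi1a, itgb2, BATF3, NT5E, S1PR1, HSD17B7, mhc2daa and CTSH (adjusted p = 0.0518 to 0.194). Those of ccr12a, CISH, gpx1a, anxa5b, slc25a22a, RPL23, rps27.1 and cd22 ended too (adjusted p = 0.0549 to 0.142). So did those of TAGLN, il12rb2l, WAS, SCARF1, slco2b1 and cd209 (adjusted p = 0.0654 to 0.137). Conversely, csf1rb and HEPACAM2, not called without the block, passed with it (adjusted p = 0.0492 and 0.039). With the block the adjusted p was 0.106 for apoeb, 0.1375 for EBF1, 0.156 for IGF1, 0.0852 for ANGPTL4, 0.106 for KCNK18, 0.0929 for nfil3-6, 0.0822 for HMOX1 and 0.0715 for csrnp1a, and the lower counts were 4 for the actin and 2 for the ribosomal list and the higher counts 1 for the macrophage core, 4 for lineage factors, 2 for cytokines and 3 for solute carriers.

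The difference from control fish was called for 0 genes, but for 682 with DESeq2, 25 with limma voom, 1 with the 10 CPM filter, 15 with no filter and 0 to 3 without 1 library. The 2 calls against PBS fish became 898, 51, 4 and 91 in that order, 4 with the block (siglec15l at an adjusted p of 0.276) and 1 to 11 without 1 library. The causes were not tested.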
